A study of Homo sapiens with 12 samples.

Results

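BCYRN1, the 7SL copies RN7SL1, RN7SL2 and RN7SL3, RN7SK, RMRP and RPPH1 are short noncoding RNAs made by RNA polymerase III. They were followed in 2 human tumour cell lines after knockdown of either of 2 related RNA-binding proteins. The 7 RNAs were taken by symbol, with the row holding the most fragments over all libraries, and are 7 of the 28163 gene symbols that the tables place on chromosomes 1 to 22 and X. They were selected on results of these data: the levels of BCYRN1 in PC3 under both LARP siRNAs and of RN7SL3 in MG63 under siLARP4A were among the values they were chosen by. Those values are therefore given as a description, with no test. So are BCYRN1 between the siRNAs in PC3, RN7SL3 between the siRNAs and after siLARP4B in MG63, and both between the lines. These comparisons share libraries with those values. PC3 is a prostate adenocarcinoma line grown in RPMI medium, and MG63 is an osteosarcoma line grown in Alpha-MEM; both are labelled WT. Using Lipofectamine RNAiMAX, each received siRNA at 10 nM: a control without a target (siControl), siRNA to LARP4A (siLARP4A) or siRNA to LARP4B (siLARP4B). RNA was taken 72 h later and poly(A) selected. This gave 6 groups with 2 libraries each, 12 libraries in all. All groups share the transfection, the siRNA sequences and the number of siRNAs per target are not given in the sources used here, and each tumour type is represented by 1 cell line.

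RNA polymerase III makes short, abundant RNAs that mostly lack a poly(A) tail and end in a run of U to which the La protein binds. BCYRN1 (BC200) is a primate RNA that arose from an Alu element, contains an A-rich stretch, binds the signal recognition particle proteins SRP9 and SRP14 and poly(A)-binding protein, and is known as a repressor of translation in neuronal dendrites that tumour cells also make. The 7SL RNAs are the scaffold of the signal recognition particle, which directs ribosomes making secreted proteins to the endoplasmic reticulum. RN7SK holds the elongation factor P-TEFb (CDK9 with a cyclin T) inactive together with HEXIM1, LARP7 and MEPCE. RMRP is the RNA of RNase MRP and RPPH1 that of RNase P, a pair of ribonucleoproteins that share most of their proteins and process ribosomal RNA precursors and the 5′ ends of tRNAs. LARP4A (gene LARP4) and LARP4B belong to the La-related protein family and bind mRNA and poly(A)-binding protein. In libraries selected for poly(A), an RNA with no tail is recovered only in part, so its level here is that of the RNA which passed the selection.

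In hg38 coordinates, BCYRN1 lies at chr2:47335315-47335514 on the plus strand. RN7SL1 (chr14:49586580-49586878, plus strand), RN7SL2 (chr14:49862551-49862849, minus strand) and RN7SL3 (chr14:49853616-49853914, minus strand) lie on chromosome 14, and RN7SL2 and RN7SL3 are 8636 bases apart. RN7SK lies at chr6:52995620-52995951 on the plus strand, RMRP at chr9:35657751-35658018 and RPPH1 at chr14:20343071-20343411, both on the minus strand. The 7SL copies are near-identical genes, so the authors' counting could split or move fragments among them or list a fragment at several copies. Their separate values are uncertain. Whether fragments of other Alu elements were counted at BCYRN1 was not tested. The nearest annotated genes are RPS29 at 199 bases from RN7SL1, PARP2 at 223 bases from RPPH1, CCDC107 at 273 bases from RMRP, GSTA4 at 335 bases from RN7SK and NEMF at 827 bases from RN7SL3.

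The libraries held 16950119 to 24864977 fragments. The targeted transcripts fell in the libraries labelled with their siRNA: LARP4 from 19.2 ± 0.344 to 2.41 ± 0.0823 FPKM (the authors' fragments scaled to a common library total, per kilobase of the model; SD, n = 2) in PC3 (log2 fold change -3.01; -1.94 in MG63), and LARP4B by log2 fold changes of -2.48 in PC3 and -1.69 in MG63. The epithelial markers EPCAM, KRT8, KRT18, KRT19 and CDH1 summed to 796 to 1042 FPKM in PC3 and 54.6 to 72.2 in MG63, where EPCAM and CDH1 were at or near 0. The 5 mesenchymal and bone markers (COL1A1, COL1A2, COL3A1, SPARC, RUNX2) summed to 12.4 to 17.8 FPKM in PC3 and 2685 to 3400 in MG63, although RUNX2, the osteoblast transcription factor among them, was itself at 0.140 to 0.654 FPKM in MG63. Each pair of replicates differed by more than counting error. The labels call the replicates biological without saying that they came from separate cultures, so p-values measure the spread between these samples, which may be technical. In bulk RNA, fewer cells that make an RNA and less of it per cell cannot be told apart.

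Of the 7 RNAs, BCYRN1 had the largest difference between the lines, and in PC3 it was higher in every LARP siRNA library than with siControl. In PC3 its deposited fragments were 131 and 232 with siControl, 1704 and 850 with siLARP4A, and 1254 and 649 with siLARP4B (replicates 1 and 2). All 4 libraries given a LARP siRNA lay above both siControl libraries, and the siLARP4A and siLARP4B libraries overlapped each other. In MG63 the fragments were 6882 and 5838 with siControl, 8293 and 5358 with siLARP4A, and 7848 and 6974 with siLARP4B. By FPKM, which allows for library size, the ranges of the MG63 groups overlapped. Every MG63 library lay above every PC3 library.

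As FPKM, BCYRN1 stood at 48.7 ± 17.3 (SD, n = 2) in PC3 under siControl, at 283 ± 83.9 under siLARP4A and at 259 ± 96.0 under siLARP4B. These means are 5.82 and 5.33 times that of siControl. Between siLARP4A and siLARP4B the log2 difference of BCYRN1 in PC3 was 0.16, given without a test. In terms of rank by FPKM, BCYRN1 moved from place 2046 and 1189 with siControl to 152 and 257 with siLARP4A and 158 and 303 with siLARP4B.

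In MG63, BCYRN1 was among the most abundant transcripts for its length, at rank 11 to 17 by FPKM in the 6 libraries. It stood there at 1715 ± 264 FPKM (SD, n = 2) under siControl, at 1908 ± 658 under siLARP4A and at 1926 ± 109 under siLARP4B. Neither siRNA moved it past the threshold: the log2 fold change was 0.17 for siLARP4A (95% interval -0.21 to 0.55, edgeR adjusted p 0.54) and 0.19 for siLARP4B (-0.18 to 0.57, edgeR adjusted p 0.45). PC3 minus MG63 under siControl, the log2 difference of BCYRN1 was -5.29, or 39.1-fold, a description because these PC3 libraries belong to the contrasts that chose BCYRN1. With mean FPKM, MG63 exceeded PC3 35.2-fold with siControl, 6.73-fold with siLARP4A and 7.43-fold with siLARP4B.

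The neighbouring gene and the duplicates of BCYRN1 were also measured. EPCAM-DT, which contains it on the opposite strand, had 16 fragments in the 12 libraries together, against 46013 for BCYRN1. A deduplicated table exists for PC3 siControl replicate 2, and it kept 137 of 232 BCYRN1 fragments (59.1%), 70.3% of RN7SL1, 72.1% of RN7SL2, 86.0% to 92.6% of the other 4 members and 86.6% over all models. Using it for that library gave log2 fold changes of 2.90 and 2.74 for BCYRN1 after siLARP4A and siLARP4B in PC3. No other library here has such a table, so the same step could not be taken on both sides of a comparison.

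**Figure D1:**
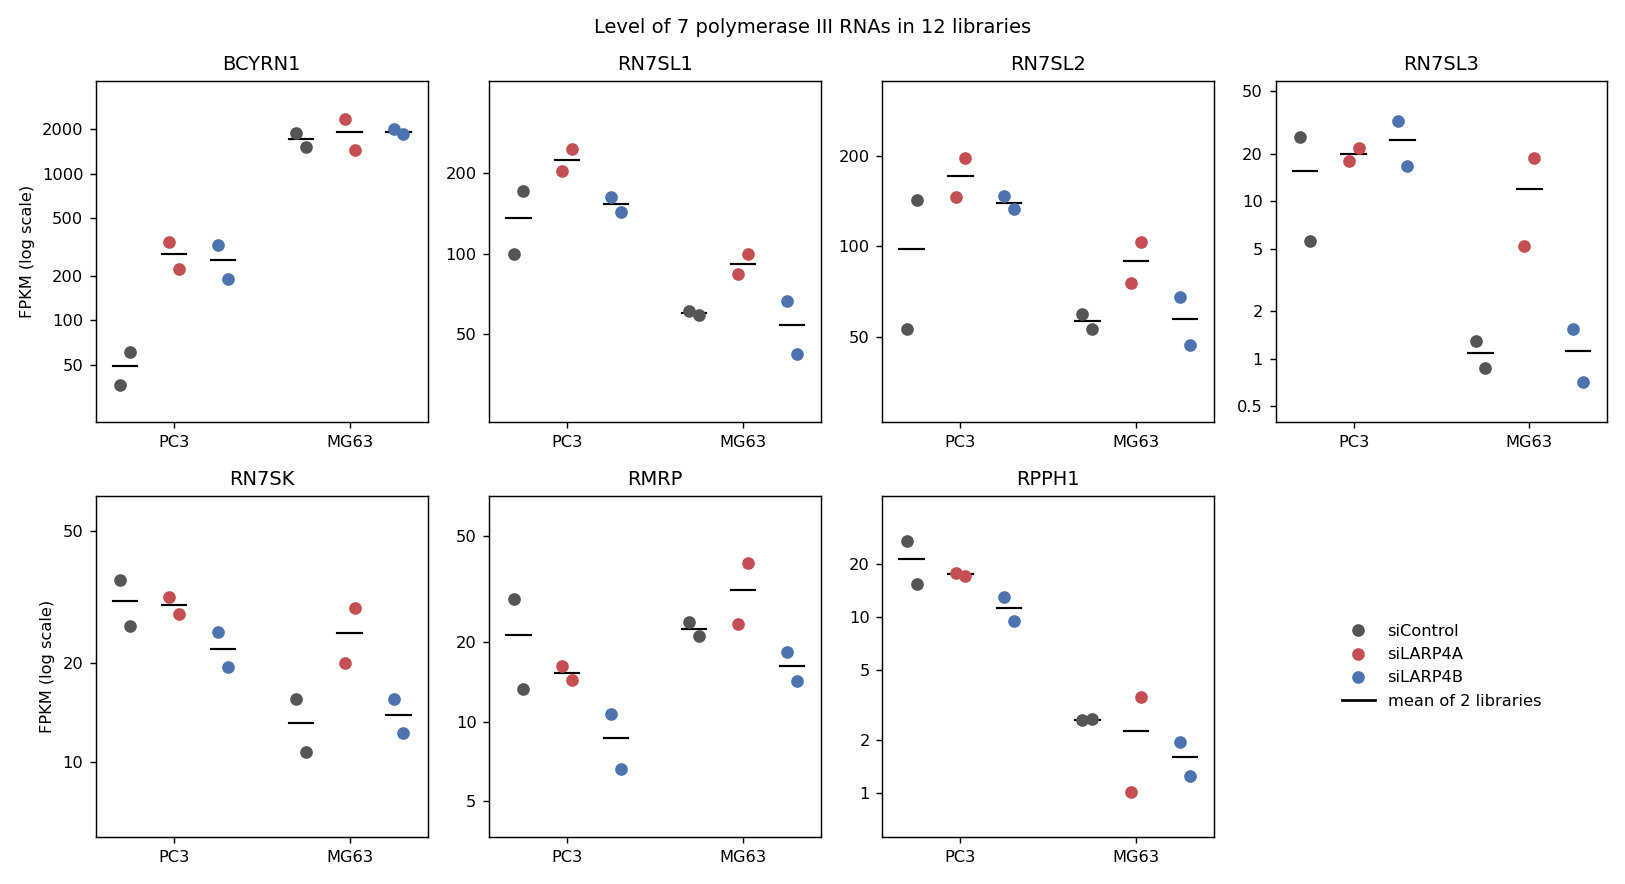
Level of each of the 7 RNAs in the 12 libraries, in FPKM on a log axis, with points coloured by siRNA and a black line at the mean of each group of 2. BCYRN1 lies highest in MG63 and is higher in the LARP siRNA libraries of PC3 than in siControl, while every PC3 library lies above every MG63 library for RPPH1.

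The 7SL copies are the scaffold of 1 particle, and RN7SL1 and RN7SL2 gave most of their fragments. In PC3, RN7SL1 had 536 and 978 fragments with siControl, 1509 and 1388 with siLARP4A, and 932 and 728 with siLARP4B. In MG63 it had 330 and 336, 439 and 553, and 389 and 239 for those groups. Scaled to FPKM, both siLARP4A libraries lay above both siControl libraries in each line, while the siLARP4B libraries fell within or around the siControl range.

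RN7SL1 rose after siLARP4A in both lines. In PC3 it averaged 136 ± 50.9 FPKM under siControl and 224 ± 29.5 under the siRNA (SD, n = 2), a log2 fold change of 0.70 (standard error 0.156, edgeR adjusted p 0.00114). This call was kept under every alternative tried, over a range of 0.40 to 1.17. In MG63 it averaged 59.9 ± 1.51 FPKM under siControl and 91.8 ± 11.02 under the siRNA, a log2 fold change of 0.64 (standard error 0.193, edgeR adjusted p 0.0170). The MG63 call was lost with the DESeq2 Wald test (adjusted p 0.120), limma (adjusted p 0.0987) and fragments summed over all rows of a symbol (edgeR adjusted p 0.0875), and also without siControl replicate 1 (0.66, edgeR adjusted p 0.0879), siControl replicate 2 (0.60, 0.123) or siLARP4A replicate 2 (0.50, 0.178). The difference between the lines in this effect was 0.07 (95% interval -0.45 to 0.58, edgeR adjusted p 0.93). After siLARP4B it did not pass in either line, at 0.13 in PC3 and -0.11 in MG63. Without PC3 siControl replicate 2 the PC3 value was 0.60. Both PC3 siLARP4B libraries, at 163 and 144 FPKM, lay between the siControl replicates, at 99.8 and 172.

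RN7SL2 had 286 and 809 fragments in PC3 with siControl, 1086 and 1115 with siLARP4A, and 841 and 672 with siLARP4B. In MG63 the counts were 323 and 303, 393 and 573, and 396 and 264. The siControl libraries of PC3 stood apart, with 53.3 and 142 FPKM. RN7SL2 rose after siLARP4A in PC3, by 0.78 (standard error 0.232, edgeR adjusted p 0.0108), and that call rests on siControl replicate 1, without which it was 0.29 (edgeR adjusted p 0.21). It was also lost without siLARP4A replicate 2 (0.59, edgeR adjusted p 0.0608), and was 1.68 without siControl replicate 2. It was lost with the DESeq2 Wald test (adjusted p 0.167), limma (adjusted p 0.0698) and summed rows (edgeR adjusted p 0.0915) too. In MG63 siLARP4A gave 0.69 (edgeR adjusted p 0.0693). After siLARP4B the values were 0.47 in PC3 (edgeR adjusted p 0.121) and 0.05 in MG63. The PC3 value was 1.37 without siControl replicate 2. The PC3 siLARP4B libraries, at 147 and 133 FPKM, lay above and below that replicate, at 142.

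RN7SL3 was the scarcest copy and the member with the widest spread between replicates. Its fragments in PC3 were 138 and 32 with siControl, 134 and 123 with siLARP4A, and 185 and 85 with siLARP4B. In MG63 they were 7 and 5, 27 and 105, and 9 and 4. The siLARP4A libraries of MG63 lay above the other 4 MG63 libraries and differed from each other 3.66-fold in FPKM, and the siControl libraries of PC3 differed 4.57-fold. In MG63 it stood at 1.09 ± 0.296 FPKM (SD, n = 2) under siControl, at 12.04 ± 9.72 under siLARP4A and at 1.12 ± 0.585 under siLARP4B. Set directly against siLARP4B in MG63, siLARP4A gave a log2 difference of 3.40. The siLARP4A libraries are among those RN7SL3 was chosen by, so this value is a description too. In PC3 neither siRNA moved RN7SL3 past the threshold against siControl (0.34 and 0.64, edgeR adjusted p 0.58 and 0.24). Without siControl replicate 1 these values were 1.83 and 2.14. Both PC3 siLARP4A libraries, at 18.0 and 21.7 FPKM, lay below siControl replicate 1, at 25.7, and above replicate 2, at 5.62. The PC3 siLARP4B libraries, at 32.3 and 16.8 FPKM, lay above and below siControl replicate 1.

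The make-up of the 7SL signal differed between libraries. RN7SL3 took 14.4% of the 7SL fragments (95% Clopper-Pearson interval 12.2% to 16.8%) in PC3 siControl replicate 1 and 1.76% (1.21% to 2.47%) in replicate 2. It took 4.91% and 4.68% with siLARP4A and 9.45% and 5.72% with siLARP4B. In MG63 its share was 1.06% and 0.776% with siControl, 1.13% and 0.789% with siLARP4B, and 3.14% (2.08% to 4.54%) and 8.53% (7.03% to 10.2%) with siLARP4A. The intervals cover counting error only and take the fragments of the copies as separate. Those of the PC3 siControl replicates lie far apart. The ratio of RN7SL1 to RN7SL2 fragments ran from 0.905 to 1.87 over the 12 libraries, with the highest value in PC3 siControl replicate 1.

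Summed over the copies, 7SL made up 53.5 and 95.5 FPM (fragments scaled to a common library total) in PC3 with siControl, 110 and 138 with siLARP4A, and 102 and 87.6 with siLARP4B. Moving a fragment from one copy to another leaves this sum unchanged, but a fragment listed at several copies would count more than once. In MG63 the sums were 36.5 and 33.7, 49.2 and 66.3, and 40.5 and 26.9. Both siLARP4A libraries exceeded both siControl libraries in each line, and every PC3 library exceeded every MG63 library given the same siRNA.

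**Figure D2:**
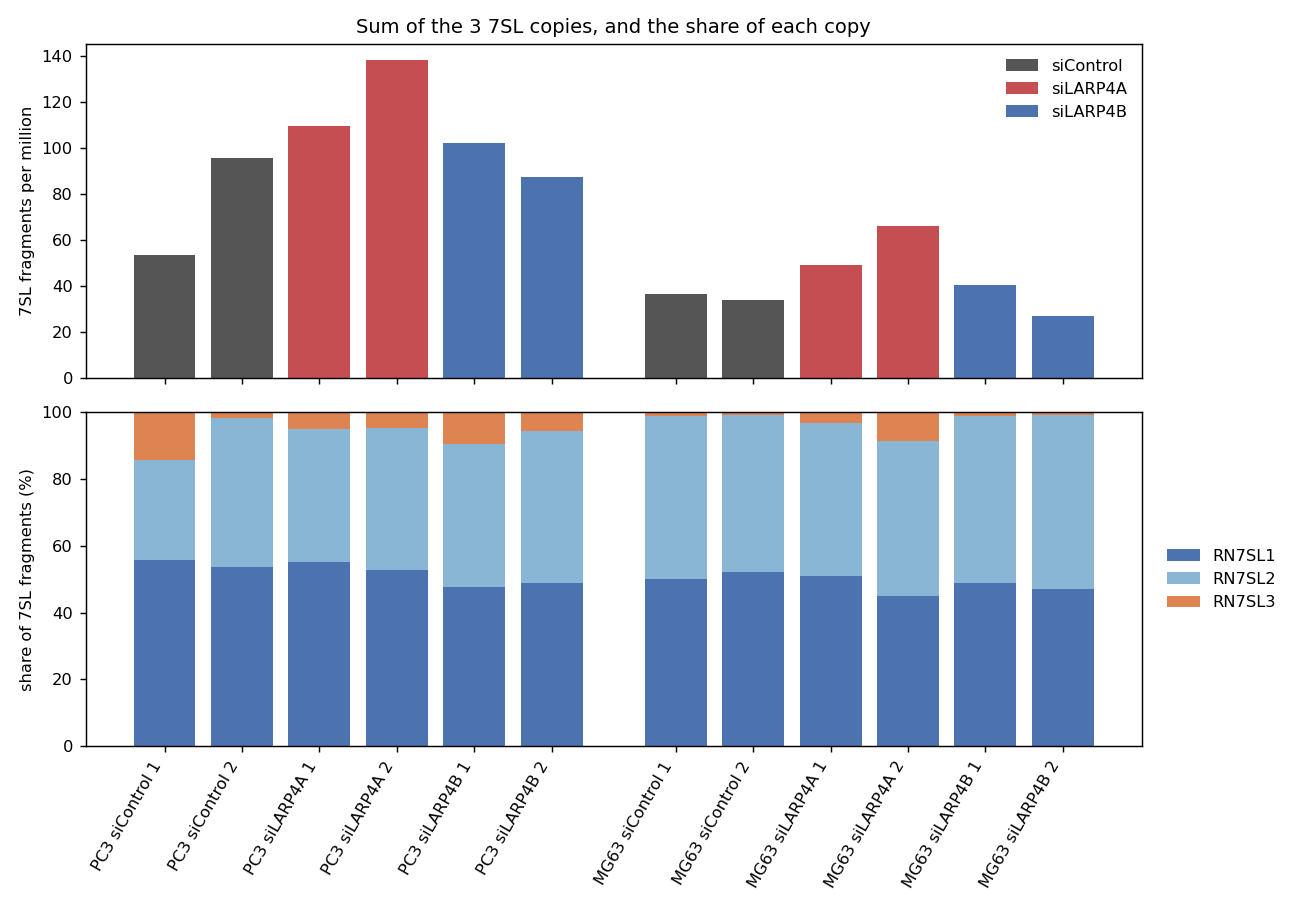
The upper panel gives the sum of the 3 7SL copies in FPM for each of the 12 libraries, with bars from 0; the lower panel gives the share of each copy in that sum in percent. The sum is highest in PC3 siLARP4A (110 and 138), and the RN7SL3 share reaches 14.4% in PC3 siControl replicate 1 and 8.53% in MG63 siLARP4A replicate 2.

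RN7SK, the scaffold of the complex that restrains P-TEFb, had 211 and 163 fragments in PC3 with siControl, 260 and 177 with siLARP4A, and 157 and 109 with siLARP4B. In MG63 it had 93 and 68, 116 and 180, and 101 and 77. By FPKM, both siLARP4B libraries of PC3 lay below both siControl libraries, and both siLARP4A libraries of MG63 lay above both siControl libraries. RN7SK rose after siLARP4A in MG63, from 13.1 ± 3.36 to 24.6 ± 6.51 FPKM (SD, n = 2), a log2 fold change of 0.94 (standard error 0.214, edgeR adjusted p 0.00212). In PC3 the same siRNA gave -0.04 (95% interval -0.40 to 0.32, edgeR adjusted p 0.90). The difference between the lines in this effect passed the threshold, at -0.98 for PC3 minus MG63 (standard error 0.277, edgeR adjusted p 0.0242). After siLARP4B, RN7SK fell by 0.51 on the log2 scale in PC3 (standard error 0.188, edgeR adjusted p 0.0331), and in MG63 the value was 0.12 (edgeR adjusted p 0.74).

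Single libraries decided these RN7SK calls. Without MG63 siControl replicate 2 or siLARP4A replicate 2 the rise in MG63 was 0.68 or 0.62 (edgeR adjusted p 0.0737 and 0.0945). The difference between the lines missed the threshold without PC3 siControl replicate 1, MG63 siControl replicate 2 or MG63 siLARP4A replicate 2 (edgeR adjusted p 0.178, 0.183 and 0.212), and with limma (adjusted p 0.0957), all symbols kept (edgeR adjusted p 0.0691) and summed rows (edgeR adjusted p 0.113). The fall in PC3 was -0.22 without siControl replicate 1 (edgeR adjusted p 0.47) and -0.32 without siLARP4B replicate 2 (0.30). It was also lost with the DESeq2 Wald test (adjusted p 0.0828), limma (adjusted p 0.125), all symbols kept (edgeR adjusted p 0.0835) and summed rows (edgeR adjusted p 0.112).

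RMRP and RPPH1, the RNAs of RNase MRP and RNase P, were followed together because their particles share proteins. RMRP had 140 and 68 fragments in PC3 with siControl, 108 and 73 with siLARP4A, and 55 and 30 with siLARP4B. Its counts in MG63 were 115 and 108, 109 and 197, and 96 and 72. RPPH1 had 166 and 100, 151 and 111, and 85 and 55 in PC3, and 16 and 17, 6 and 22, and 13 and 8 in MG63. For both RNAs the siLARP4B libraries lay below the siControl libraries in each line by FPKM, without overlap, though neither passed the threshold in MG63. How many of all genes had groups lying apart in this way was not counted, here or for the other members.

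Both RNAs fell after siLARP4B in PC3. RMRP averaged 21.2 ± 11.1 FPKM under siControl and 8.66 ± 2.90 under the siRNA (SD, n = 2), a log2 fold change of -1.31 (standard error 0.325, edgeR adjusted p 0.00223). RPPH1 averaged 21.3 ± 8.28 FPKM under siControl and 11.3 ± 2.47 under the siRNA, a log2 fold change of -0.94 (standard error 0.249, edgeR adjusted p 0.00361). Both calls rest on siControl replicate 1, without which the values were -0.60 (edgeR adjusted p 0.178) and -0.44 (0.209); RPPH1 was also lost without siLARP4B replicate 2 (-0.71, edgeR adjusted p 0.0699) and with limma (adjusted p 0.0734). In MG63 siLARP4B gave -0.43 for RMRP (edgeR adjusted p 0.26) and -0.67 for RPPH1 (0.38), neither past the threshold. RPPH1 had 8 to 17 fragments in each of these MG63 libraries. The effects in the 2 lines were not told apart, with differences of -0.87 for RMRP (edgeR adjusted p 0.15) and -0.27 for RPPH1 (0.81). After siLARP4A neither RNA passed in either line: RMRP stood at -0.46 in PC3 and 0.51 in MG63, and RPPH1 at -0.28 and -0.17. Without PC3 siControl replicate 2 the PC3 values were -0.91 for RMRP and -0.62 for RPPH1. By FPKM both siLARP4A libraries of PC3 lay below siControl replicate 1 and above replicate 2. RMRP had 16.2 and 14.4 with siLARP4A against 29.1 and 13.3 with siControl, and RPPH1 17.8 and 17.2 against 27.1 and 15.4.

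The siControl libraries of PC3 thus weigh on most of these values. Replicate 1 held less BCYRN1, RN7SL1 and RN7SL2 than replicate 2 and more RN7SL3, RN7SK, RMRP and RPPH1. The fragments summed over 568 small nucleolar and Cajal body RNA symbols, which also lack a poly(A) tail, were 963 FPM in that library, 1454 in replicate 2 and 1377 to 1745 in the other PC3 libraries, and 1921 to 2073 in MG63. The other lists of RNAs without a tail differed from this. Summed over 17 small nuclear and telomerase RNA symbols, with 19 to 90 fragments per PC3 library, replicate 1 had 4.51 FPM and replicate 2 3.36. The other PC3 libraries had 1.12 to 4.74. Summed over 67 replication-dependent histone genes, replicates 1 and 2 had 127 and 133 FPM. The part of these RNAs in the members' values was not tested. Whether the fragments at the symbols of these lists came from RNAs without a tail was not tested either. The fitted biological coefficient of variation was 33.6% for RN7SL3, 17.3% for RN7SL2 and RMRP, 15.2% for RPPH1, 14.9% for BCYRN1, 11.7% for RN7SL1 and 10.99% for RN7SK, against a median of 4.605% over all genes tested. The least variable by dispersion, RN7SK, was above 93.6% of genes, and RN7SL3 above 99.96%.

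Counted over the members, siLARP4A gave 2 of 6 tested RNAs higher and none lower in PC3 (RN7SL1 and RN7SL2), where 36% of all 15668 genes tested passed, 17% higher and 19% lower. In PC3 siLARP4B gave none higher and 3 of 6 lower (RN7SK, RMRP and RPPH1), where 44.7% of genes passed, 21.3% higher and 23.4% lower. In MG63 siLARP4A gave 2 of 6 higher (RN7SL1 and RN7SK) and none lower, where 26.4% passed, 14.5% higher and 11.9% lower. With siLARP4B in MG63, 0 of 6 passed in edgeR, and 0 had an unadjusted p under 0.05, where 35.1% of genes passed. RN7SL3 is described only there, because the MG63 siControl libraries belong to the contrast that chose it. DESeq2 and limma also called 0 there. The median log2 fold change over the tested members was 0.15, -0.19, 0.58 and 0.05 in these comparisons, the last with RN7SL3 included. Medians of all genes were between 0 and 0.01. With 6 RNAs, counts of 2 or 3 do not set the members apart from those shares.

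Setting the siRNAs against each other asks whether the knockdowns differ in their effects on the members. In PC3, where BCYRN1 is described only, 4 of 6 were higher with siLARP4A than with siLARP4B and none lower, where 54.2% of genes passed (27% higher, 27.2% lower). They were RN7SL1 (log2 difference 0.57, edgeR adjusted p 0.00341), RN7SK (0.47, 0.0372), RMRP (0.84, 0.0386) and RPPH1 (0.66, 0.0309). Without siLARP4A replicate 1 or siLARP4B replicate 2 the last 3 were not called, nor were they with the DESeq2 Wald test, limma, all symbols kept or summed rows. RN7SL1 passed without each library in turn, and missed the threshold in DESeq2 (adjusted p 0.101) and limma (0.0861). In MG63, where RN7SL3 is described only, 3 of 6 were higher with siLARP4A and none lower, where 43.6% passed (22.1% higher, 21.5% lower). These were RN7SL1 (0.74, edgeR adjusted p 0.00348), RN7SK (0.82, 0.0030) and RMRP (0.95, 0.00628). All 3 calls were lost without siLARP4A replicate 2, with values of 0.61 for RN7SL1, 0.51 for RN7SK and 0.50 for RMRP, and RN7SL1 and RMRP were lost without siLARP4B replicate 2 too (0.46 and 0.78). RMRP was also lost with the DESeq2 Wald test (adjusted p 0.0871), limma (adjusted p 0.0604) and summed rows (edgeR adjusted p 0.0544). BCYRN1 did not differ past the threshold between the siRNAs in MG63 (-0.02, 95% interval -0.40 to 0.36).

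**Figure D3:**
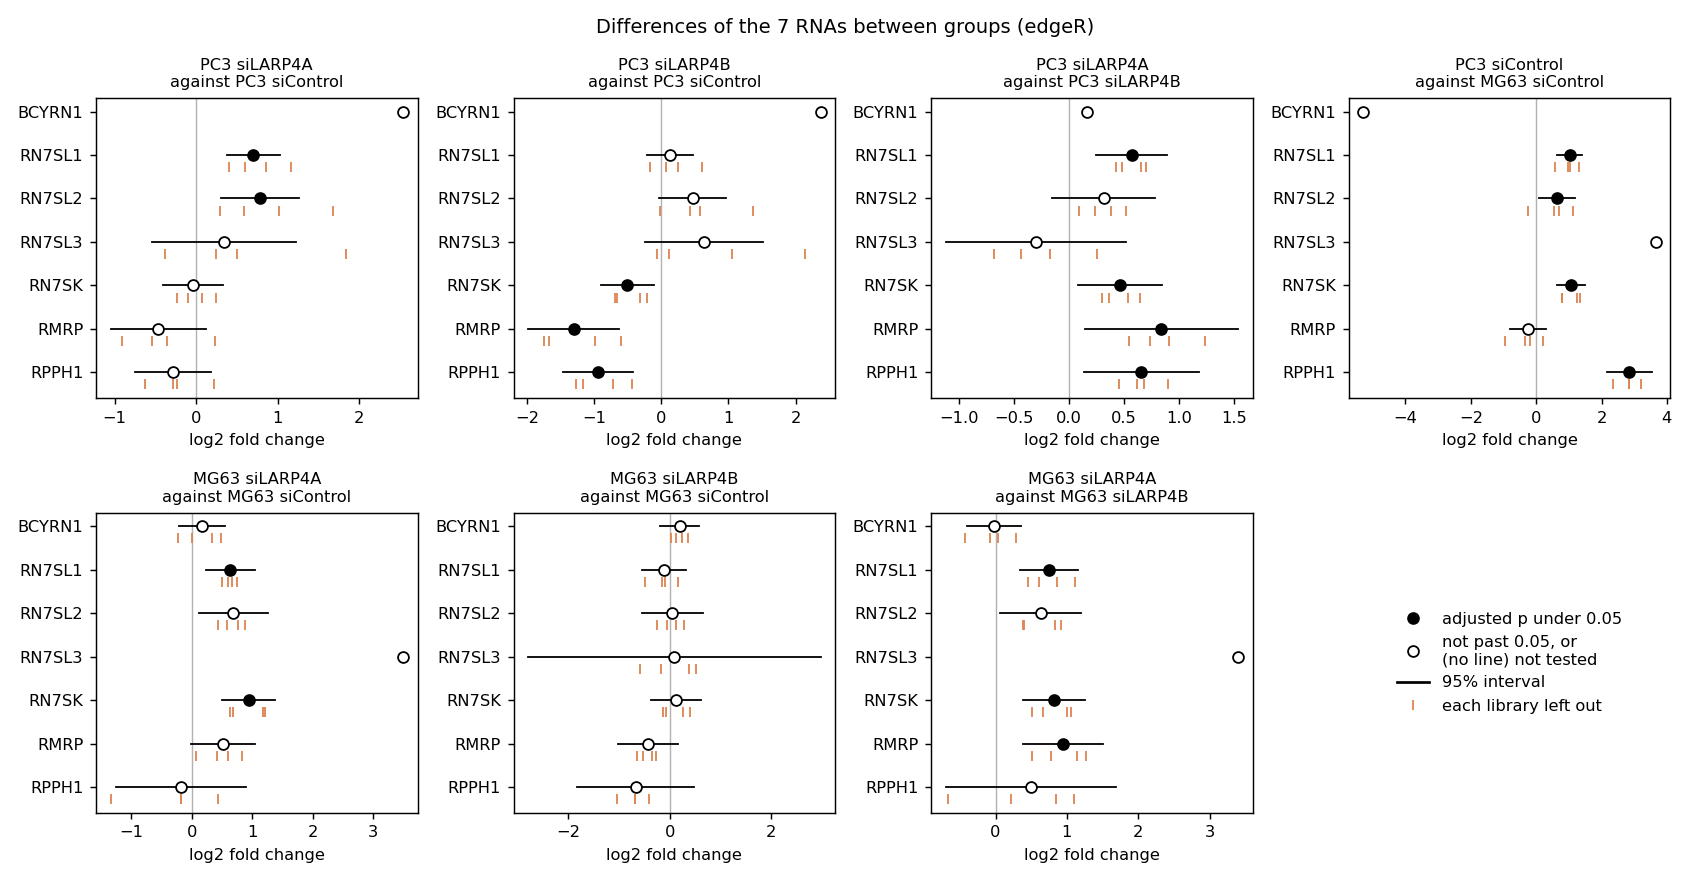
Log2 fold change of each RNA in 7 comparisons, with 95% intervals; filled points have an edgeR adjusted p under 0.05, open points do not, open points without an interval are described only, and for the others orange ticks give the value without each library in turn. BCYRN1 lies at -5.29 between the lines and near 0 for both siRNAs in MG63, and the ticks of RN7SL2 for siLARP4A against siControl in PC3 run from 0.29 to 1.68. RN7SL3 for siLARP4B against siControl in MG63 is drawn with an interval but is described only too.

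The lines themselves were compared within siControl. BCYRN1 and RN7SL3 are described only here, because the siControl libraries of PC3 for BCYRN1 and of MG63 for RN7SL3 belong to the contrasts that chose them. Of the other 5 members, 4 were higher in PC3 and none lower, where 81.8% of genes passed, 42.1% higher and 39.7% lower. RPPH1 stood at 21.3 ± 8.28 FPKM (SD, n = 2) in PC3 and 2.60 ± 0.013 in MG63, a log2 difference of 2.86 (standard error 0.332, edgeR adjusted p 5.1e-08). RN7SK differed by 1.06 (standard error 0.206, edgeR adjusted p 6.6e-05) and RN7SL1 by 1.02 (standard error 0.184, edgeR adjusted p 2.6e-05). These 3 calls were kept under every alternative tried. RN7SL3 had a log2 difference of 3.66, given without a test. RN7SL2, at 0.64 (edgeR adjusted p 0.0335), was called but not kept: it was -0.25 (edgeR adjusted p 0.28) without PC3 siControl replicate 2 and lost the call without either MG63 siControl library (0.71 and 0.53), and with the DESeq2 Wald test (adjusted p 0.221), limma (adjusted p 0.140), all symbols kept, the deduplicated table and summed rows. RMRP stood at 21.2 ± 11.1 FPKM in PC3 and 22.4 ± 1.84 in MG63 (-0.25, edgeR adjusted p 0.40). Without PC3 siControl replicate 1 the difference was -0.94. The PC3 siControl libraries, at 29.1 and 13.3 FPKM of RMRP, lay above and below both MG63 siControl libraries. RMRP and RPPH1 thus had like levels in PC3 siControl, while in MG63 siControl RMRP had 23.7 and 21.1 FPKM and RPPH1 2.59 and 2.61.

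The order of the members by mean FPKM differed between the lines. In PC3 with siControl it ran RN7SL1, RN7SL2, BCYRN1, RN7SK, RPPH1, RMRP, RN7SL3, and each overlapped the next in its libraries except BCYRN1 and RN7SK. In MG63 with siControl it ran BCYRN1, RN7SL1, RN7SL2, RMRP, RN7SK, RPPH1, RN7SL3, with RN7SL1 and RN7SL2 the neighbours that overlapped. Of the effects of siLARP4A, 1 of 5 tested members differed between the lines (RN7SK, lower in PC3), where 11.4% of genes passed, 4.1% higher and 7.29% lower. Of those of siLARP4B, 0 of 5 passed in edgeR, where 27.9% of genes did, 10.3% higher and 17.6% lower. BCYRN1 and RN7SL3 are described only in both of these comparisons. RN7SK had an unadjusted edgeR p of 0.0493 for siLARP4B, and no other of the 5 was under 0.05.

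The proteins that make, bind or hold these RNAs were followed as 5 lists. Of the polymerase III subunits and factors, 34 of 35 could be tested. In PC3 siLARP4A gave 7 higher and 9 lower, and siLARP4B 6 higher and 9 lower. In MG63 siLARP4A gave 1 higher and 3 lower, and siLARP4B 13 higher and 4 lower. As shares of the 34 these stand beside 17% higher and 19% lower, 21.3% and 23.4%, 14.5% and 11.9%, and 18.8% and 16.3% of all genes tested, in that order, and the same shares of all genes stand beside the other 4 lists below. The median of the list was between -0.05 and 0.12 in these 4 comparisons. GTF3C6, a subunit of TFIIIC, which binds promoters that lie within a gene, such as those of tRNA genes, fell after siLARP4B in both lines, by -0.80 in PC3 and -0.56 in MG63. After siLARP4B in PC3 the polymerase subunits POLR3G (-0.48), POLR3B (-0.44) and POLR3K (-0.38) fell too. In MG63 GTF3A, the 5S RNA gene factor (0.53), POLR2F (0.52) and POLR1C (0.38), subunits shared with other polymerases, rose. After siLARP4A, POLR2E, another shared subunit, fell by -0.61 in PC3 and -0.36 in MG63, BRF2, the TFIIIB factor of upstream promoters such as that of RN7SK, rose by 0.56 in PC3, and POLR3D rose by 0.42 in MG63. The counts in MG63 moved with the processing: for siLARP4B the list gave 9 and 11 in place of 17 without siControl replicate 1 and 2, and for siLARP4A limma gave 9 and a fit of the MG63 libraries alone 10 in place of 4.

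Of the 7 proteins of the 7SK particle, LARP7 had the largest change after siLARP4B in each line. LARP7, which binds the 3′ end of RN7SK and stabilises it, had 16.7 and 16.8 FPKM with siControl, 18.2 and 17.4 with siLARP4A and 8.56 and 8.87 with siLARP4B in PC3. In MG63 it had 14.1 and 13.1, 12.8 and 13.3, and 7.02 and 7.53. Every siLARP4B library lay below every other library of its line, by a log2 fold change of -0.99 in PC3 (standard error 0.0742, edgeR adjusted p 3.5e-10) and -0.87 in MG63 (standard error 0.0772, edgeR adjusted p 1.2e-08). The difference between the lines was -0.12 (edgeR adjusted p 0.47). MEPCE, the enzyme that caps RN7SK, fell after siLARP4B by -0.34 in PC3 and -0.47 in MG63, and HEXIM1, which inhibits P-TEFb, changed by 0.22 in PC3 and -0.22 in MG63, the latter lost without MG63 siControl replicate 1 or siLARP4B replicate 2. After siLARP4B the list thus gave 1 higher and 2 lower in PC3 (beside 21.3% and 23.4% of all genes) and 3 lower in MG63 (beside 16.3%), with medians of -0.02 and -0.19. After siLARP4A it gave MEPCE alone in PC3 (-0.23) and MEPCE (-0.27) and CCNT2 (0.24) in MG63, where 36% and 26.4% of all genes passed. These siLARP4A counts were 0 without either PC3 siControl library or PC3 siLARP4A replicate 1, 2 without PC3 siLARP4A replicate 2, 0 without MG63 siControl replicate 2 or MG63 siLARP4A replicate 1, and 1 without MG63 siControl replicate 1 or MG63 siLARP4A replicate 2.

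The 6 signal recognition particle proteins had 0 to 3 calls per comparison, where 36% and 44.7% of all genes passed in PC3 and 26.4% and 35.1% in MG63 after siLARP4A and siLARP4B. In PC3 siLARP4A gave 2 lower (SRP19 at -0.28 and SRP9 at -0.18) and siLARP4B 3 lower (SRP68 at -0.30, SRP9 at -0.22 and SRP72 at -0.18). In MG63 none passed after siLARP4A in edgeR, where DESeq2 size factors gave 1 and limma 3, and 3 rose after siLARP4B (SRP54 at 0.24, SRP72 at 0.21 and SRP14 at 0.15). The count after siLARP4A in PC3 was 1 without siControl replicate 2, and that after siLARP4B in PC3 was 1 without siLARP4B replicate 2 and 5 with limma. After siLARP4A in MG63, 3 of the 6 had an unadjusted p under 0.05. The call of SRP9 after siLARP4A was lost without either PC3 siControl library or siLARP4A replicate 2, that after siLARP4B without siLARP4B replicate 2, that of SRP72 in PC3 without any 1 of the 4 libraries, and that of SRP14 in MG63 without either siControl library or siLARP4B replicate 1.

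Of the RNase P and MRP proteins, 10 of 11 could be tested. After siLARP4B in PC3, 5 fell and none rose, where 23.4% of all genes fell and 21.3% rose, among them RPP25 (-0.65), POP4 (-0.40) and RPP14 (-0.37), with a median of -0.20; without siControl replicate 1 or either siLARP4B library 3 passed. After siLARP4B in MG63, 3 rose and none fell, where 18.8% of all genes rose and 16.3% fell, POP1 at 0.32, RPP38 at 0.46 (lost without siControl replicate 1) and RPP40 at 0.34 (lost without either siControl library or siLARP4B replicate 2). After siLARP4A, RPP25L (-0.68), POP7 (-0.29) and POP5 (-0.27) fell and POP1 (0.38) rose in PC3, where 19% of all genes fell and 17% rose. The call of POP7 there was lost without siControl replicate 2 or siLARP4A replicate 1, and that of POP5 without any 1 of the 4 libraries. In MG63 POP7 (-0.36), RPP25 (-0.35) and RPP14 (-0.29) fell after siLARP4A, where 11.9% of all genes fell, and 1 passed without either siControl library or siLARP4A replicate 1. POP7 was lost there without siLARP4A replicate 2.

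La and the proteins known to bind BCYRN1 came to 7 genes, and all 7 were in the tables. SYNCRIP, which binds A-rich RNA, fell after siLARP4A in both lines (-0.41 in PC3 and -0.26 in MG63) and after siLARP4B in PC3 (-0.41). PABPC1, the cytoplasmic poly(A)-binding protein, rose in all 4 comparisons, by 0.21 and 0.28 in PC3 and 0.19 and 0.20 in MG63 for siLARP4A and siLARP4B. PCBP2, an RNA-binding protein of cytosine-rich sequences, fell after siLARP4B in both lines (-0.33 and -0.21), and so did its relative PCBP1 (-0.45 in PC3 and -0.13 in MG63). FMR1, the fragile X protein, rose by 0.31 after siLARP4B in MG63, and after siLARP4A by 0.23 in PC3 and 0.26 in MG63. In counts the list gave 2 higher and 1 lower, 1 higher and 5 lower, 2 higher and 2 lower, and 3 higher and 2 lower, for siLARP4A and siLARP4B in PC3 and then in MG63, where 36%, 44.7%, 26.4% and 35.1% of all genes passed. The third of these counts was 2 in all without MG63 siControl replicate 1 or siLARP4A replicate 1.

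**Figure D4:**
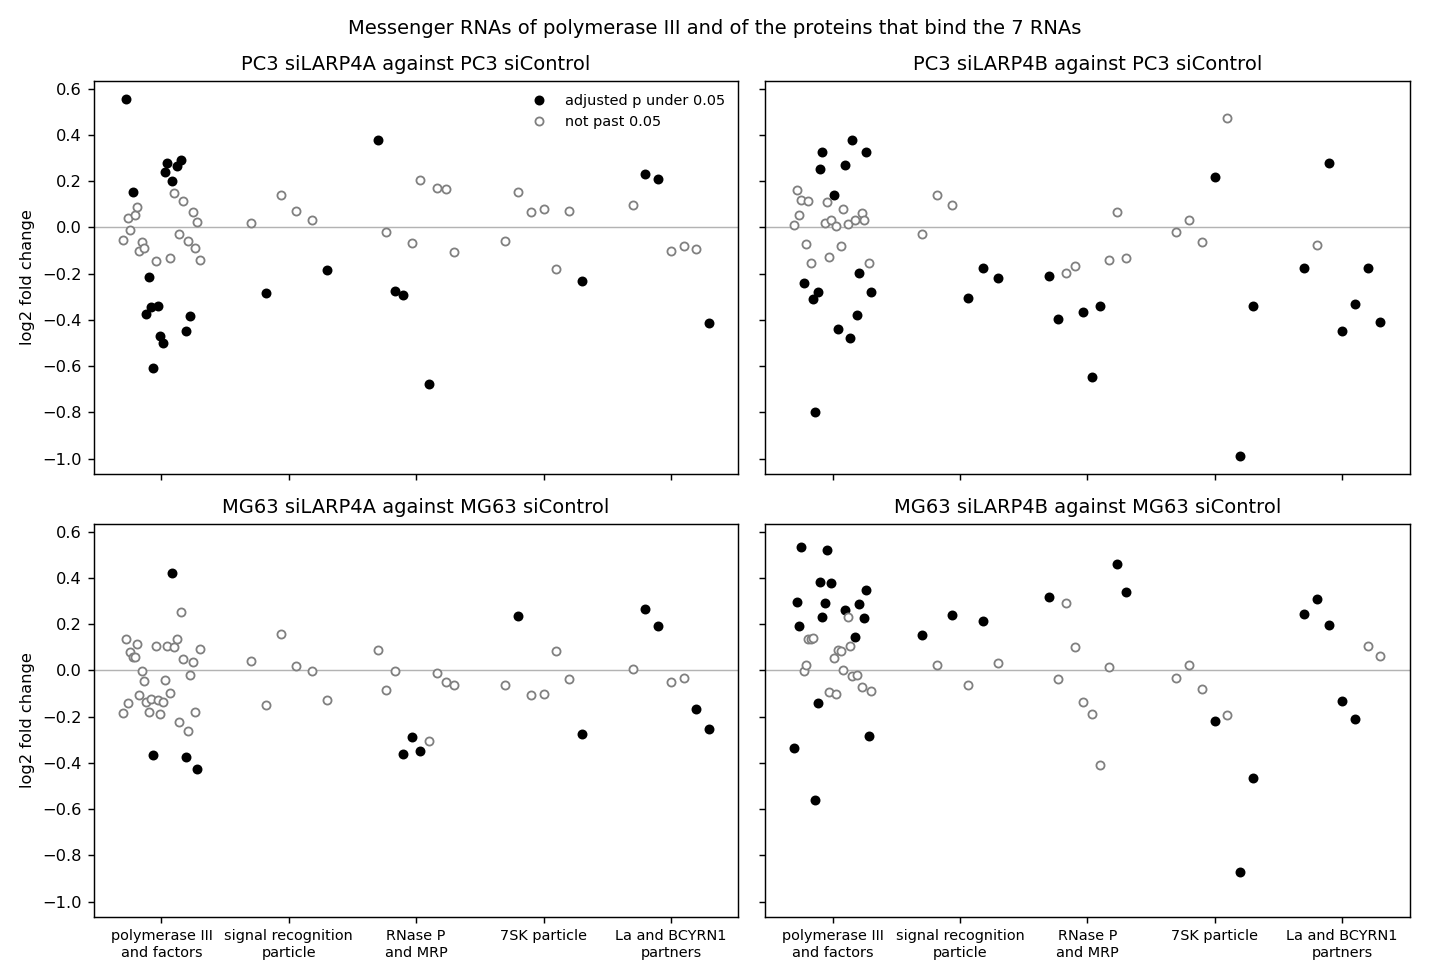
Log2 fold changes of the proteins in the 5 lists for each siRNA against siControl in each line; filled points have an edgeR adjusted p under 0.05. LARP7 lies lowest among the 7SK particle proteins after siLARP4B in both lines, at -0.99 and -0.87.

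Between the lines with siControl, 20 of the 34 polymerase III subunits and factors were higher in PC3 and 7 lower, where 42.1% of all genes were higher and 39.7% lower; those shares stand beside the other lists too. POLR3A, the largest subunit, was higher in PC3 by 2.93, POLR3G by 2.44 and POLR3F by 1.59, while SNAPC3, a subunit of the factor that binds the RN7SK promoter, was lower by 3.73 on the log2 scale, at 8.21 and 8.90 FPKM in PC3 and 101 and 102 in MG63. The signal recognition particle list gave 4 higher and 2 lower, with SRP14 at 0.96, SRP54 at 0.53, SRP19 at -0.56 and SRP9 at -0.49. RNase P and MRP proteins gave 6 higher and 3 lower, with RPP25L at 1.10, RPP14 at 1.07 and RPP25 at -1.09. The 7SK list gave 2 higher and 2 lower, with CCNT1 at 0.63 and HEXIM2 at -1.50, and the list of La and BCYRN1 partners 1 higher and 4 lower, with FMR1 at 0.55 and PCBP1 at -0.57.

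Other polymerase III RNAs could not be followed. Of 60 symbols listed, among them 5S, Y, vault and U6 RNAs, 16 had any fragment (1 of them, with 9 fragments, is TRG-AS1, an antisense gene matched by its symbol), with 492 fragments summed over the 12 libraries, and none passed the expression filter. They came to 32 to 99 fragments per library in PC3 and 7 to 38 in MG63. Several U6 symbols list the same fragments, so the sum counts those more than once.

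Genes whose levels moved most like a member's were sought over the 12 libraries after the mean of each line was removed, among 13702 genes, as a description. For BCYRN1 they were ATP10D (Pearson r 0.93), LOC100132215 (0.92) and STEAP3 (0.92). For RN7SL1 they were L3MBTL2-AS1 (0.94), AMPD3 (0.92) and SLC12A8 (0.91), and for RN7SL2 SNORA70 (0.91), MR1 (0.87) and CERS4 (0.86). RN7SL3 was followed by CYTOR (0.91), RELB (0.90) and SLC45A3 (0.89), and RN7SK by TGFB3 (0.89), FZD8 (0.88) and STIM1 (0.88). RMRP was followed by ZNF227 (0.92), KCTD18 (0.89) and JAGN1 (0.89), and RPPH1 by MESP1 (0.86), TRMT11 (0.85) and RFX1 (0.84). The libraries of a group share their treatment, and how high r runs by chance over so many genes was not tested. No gene is named for more than 1 member, and the members themselves were left out of the search. RN7SL1 and RN7SL2 had a Pearson r of 0.914 with each other. That is above SNORA70 for RN7SL2 (0.911) and SLC12A8 for RN7SL1 (0.913).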

How the data were processed

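Poly(A) RNA of 12 libraries was sequenced; total depth limits the precision of members with few fragments. Per the file headers, the authors deposited for each of 86394 transcript models a fragment count, a signal (FPM, fragments scaled to a common total per library), and FPKM. These deposited counts are whole numbers, FPM is the count over 1 library total, and FPKM is FPM per kilobase of the model. Per the submitters' processing notes, hg38, FastQC, HISAT2, featureCounts and edgeR were used, with no settings; strand handling is not given in the sources used here.

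Counts were collapsed to the row with most fragments per symbol, and 1748 symbols at several loci were left out. edgeR 4.0.16 (R 4.3.3; quasi-likelihood F-test, TMM, default filter) was fitted to all 12 libraries, with 15668 of 26415 genes tested, 9 comparisons, Benjamini-Hochberg adjustment over all genes and a threshold of 0.05; all tests are two-sided, and each adjusted p is edgeR's unless another tool is named. DESeq2 1.42.0 and limma 3.58.1, on log2(FPKM + 1), were alternatives, and a deduplicated table of PC3 siControl replicate 2 another. Replicates exceeded counting error, with a chi-square per degree of freedom of 1.92 to 6.36. The fit was tested on simulated data.

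The members and lists were chosen with earlier results of these data known. By the rule for named genes, the 7 members, LARP4, LARP4B and neighbours within 20 kb are named. So are at most 4 genes past the threshold per list and comparison (those with the largest change and a mean of at least 100 fragments). The 3 genes outside the members that were most like each member are named too. SSB and some other genes the rule allows are left out of the text. Member sequences are not reported here.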

Additional observations from a re-analysis of the deposited data

Results flagged for a closer look

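The effect of siLARP4A on RN7SK differed between the lines by a test of the difference itself. PC3 gave a log2 fold change of -0.04 and MG63 one of 0.94, which leaves -0.98 for PC3 minus MG63 (standard error 0.277, edgeR adjusted p 0.0242). In PC3 the libraries had 35.4 and 25.8 FPKM with siControl and 31.5 and 28.1 with siLARP4A, and in MG63 15.5 and 10.7 with siControl and 19.996 and 29.2 with siLARP4A. Leaving out PC3 siControl replicate 1, MG63 siControl replicate 2 or MG63 siLARP4A replicate 2 gave -0.67, -0.72 and -0.67, with edgeR adjusted p of 0.178, 0.183 and 0.212. It also missed the threshold with limma (-0.88), all symbols kept (-0.93) and summed rows (-0.98). The same difference for RMRP was -0.98 and missed the threshold (edgeR adjusted p 0.106).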

How the results depend on the processing

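Low fragment numbers and wide replicate spread limit these results, most for RN7SL3 and RPPH1 in MG63. The counts below for MG63 siLARP4B and for the siLARP4B difference between lines include RN7SL3, which is described only there. The number of members called against siControl, with main values of 2, 3, 2 and 0 for PC3 siLARP4A, PC3 siLARP4B, MG63 siLARP4A and MG63 siLARP4B, was 1, 3, 1 and 0 with the DESeq2 Wald test and 1, 1, 1 and 0 with limma. The 3 calls of the DESeq2 Wald test for PC3 siLARP4B do not include RN7SK, so they are not the same 3 RNAs as in the main fit. Without an expression filter the number of members called was 5 for PC3 siLARP4B, 5 for MG63 siLARP4A and 1 for MG63 siLARP4B. With fragments summed over all rows of a symbol it was 1 for siLARP4A in each line, and the deduplicated table gave 5 for PC3 siLARP4B. For siLARP4A against siLARP4B in PC3 the count of 4 became 0 with DESeq2, 0 with limma, 1 with all symbols kept and 1 with summed rows. For the siLARP4A difference between lines the count of 1 became 2 without a filter and 0 with limma, all symbols or summed rows, and for siLARP4B the count of 0 became 3 without a filter. Leaving out each library in turn gave 1 to 4, 1 to 5, 0 to 3 and 0 to 0 against siControl in the order above, 1 to 4 and 0 to 5 between the siRNAs in PC3 and MG63, 0 to 3 for each difference between lines, and 5 to 7 between the siControl groups, where these counts between siRNAs and between siControl groups cover all 7 RNAs, including those the report describes without a test.

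Among values past the threshold in the main fit or in an alternative, the value that turned its direction was RN7SL2 between the siControl groups. It was -0.25 without PC3 siControl replicate 2 (1.14 without replicate 1). Where both values missed the threshold, a change of direction was not counted. Of the other values without 1 library, 248 kept their side of the threshold. Among these are values that chose the members and stayed within 1 standard error. A further 29 lost the call, 16 gained it and 14 values given without a test moved by more than 1 standard error. Under the other alternatives these numbers were 453, 37, 21 and 6. Of 88 calls of genes in the protein lists and targeted genes, an addition made after the data were seen, 68 were kept in every alternative and 20 lost in at least 1. The share of higher calls over all genes moved from 36.0% to 50.03% for the siLARP4A difference between lines with all symbols kept, and from 37.0% to 54.4% for siLARP4B with limma. limma also moved the median of all genes between the siControl groups to 0.115.

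The labels number replicates 1 and 2 in each group. Deviations of same-numbered libraries correlated at -0.027 to 0.049 over all genes tested. Over genes with a mean of at least 100 fragments they correlated at -0.059 to 0.014 in PC3 and 0.070 to 0.086 in MG63. These values do not settle whether the numbers pair the samples. With a replicate block the counts against siControl were 2, 4, 3 and 0. RN7SL2 passed with it in PC3 siLARP4B (0.55), MG63 siLARP4A (0.69) and siLARP4A against siLARP4B in MG63 (0.64), and did not between the siControl groups (0.31). The block changed no other call.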
